A study of Mus musculus with 12 samples.

Results

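The 10 genes described here carry the supply of glycerol 3-phosphate and its conversion to triglyceride in fat cells. They were chosen by name for their place in this pathway, out of 22947 genes with a value in epididymal white adipose tissue (eWAT), and all 10 were found under their symbols. *Pck1*, *Gpd1* and *Aqp7* stand on the glycerol side, *Gpam*, *Agpat2*, *Lpin1*, *Lpin2*, *Dgat1* and *Dgat2* are the steps of acylation and phosphate removal, and *Mogat1* is a side entrance through monoacylglycerol. RNA was measured in male C57BL/6J mice, 3 in each of 4 groups and 12 in all, which were 21 weeks old after 16 weeks of diet. The normal diet (ND) group was the lean control, the HFD group ate a high-fat diet, the CLE group ate the same high-fat diet with 1.5% (w/w) ethanol extract of chrysanthemum leaf, and the LU group ate it with 0.003% (w/w) luteolin, a plant flavone. The study asked how CLE and LU alter transcription in the eWAT of mice on the HFD. According to the methods, the mice were fasted before the tissue was taken and the 3 per group were picked as representative of a larger group.

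Fat cells store fatty acids as triglyceride, which is built on a backbone of glycerol 3-phosphate. This backbone comes from glucose or, when glucose is scarce, from pyruvate and related substrates by glyceroneogenesis, in which the cytosolic phosphoenolpyruvate carboxykinase encoded by *Pck1* is the controlling enzyme. Fatty acids are then attached in turn by acyltransferases, with a phosphatase step between them, and the same store is broken down again in fasting, so that part of the fatty acids is re-esterified in the fat cell before it can leave.

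The values are FPKM, fragment counts scaled to transcript length and to the size of the library, summed over the transcripts of a gene, so that levels of different genes can be compared per length. The read depth behind them is unknown. Differences are given as log2 fold changes of FPKM + 1, which understate the change of genes at low FPKM. Each was tested with limma over 12775 genes, with Benjamini-Hochberg adjustment in each comparison, and a gene was called higher or lower where the fold change exceeded 1.5 and the adjusted p was under 0.05. Each library bears a number in its title, which was read as that of a mouse. On this reading the p-values rest on the spread between mice.

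The tissue carried the genes of fat cells at high levels in every library. Over 8 adipocyte genes, the summed level was 32786 to 34248 FPKM in the ND group, 16281 to 18465 in the HFD group, 25424 to 28024 in the CLE group and 24170 to 29458 in the LU group. Of these 8 genes, 7 were called lower in HFD than in ND mice, and leptin (*Lep*) was called higher. Over 8 macrophage genes, the sum was 324 to 494 FPKM in ND, 2909 to 3372 in HFD, 599 to 1045 in CLE and 1000.4 to 1211 in LU mice. All 8 macrophage genes were called higher with HFD, and all 8 were called lower with CLE and with LU. Whole tissue was extracted, so fewer cells of a type cannot be told apart from less RNA per cell. Genes of epididymis and testis summed to at most 5.46 FPKM in any library, with the epididymal gene *Lcn5* at 0 in all 12, and genes of liver, which also makes *Pck1*, to 16.9 to 37.0 FPKM in ND, 2.97 to 13.2 in HFD, 9.46 to 31.6 in CLE and 6.16 to 8.94 in LU mice. Of the other lists checked, mesothelial genes were called lower with HFD in 4 of 5 cases and red blood cell genes in 5 of 5, 2 of 6 tested liver genes and 1 of 3 tested brown adipocyte genes were called lower, and 1 of 2 tested T cell genes was called higher. Endothelial and progenitor genes were called in 0 of 5 cases each with HFD, and only 1 skeletal muscle gene was tested, which was not called. Endothelial genes were called higher in 2 of 5 cases with CLE and 3 of 5 with LU, and mesothelial genes in 1 of 5 cases with each. Of the 6 tested liver genes, albumin (*Alb*) was called higher with CLE, by 1.56 from 2.60 to 9.26 FPKM (limma adjusted p = 0.0069), and 0 were called with LU. *Alb* reached at most 19.8 FPKM in any library. The part of cell makeup in the results was not tested, but the values relative to adipocyte genes are given with them.

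The titles of 4 libraries carry a letter R whose meaning is not stated, which are those of mice 3 and 4 in the ND group, mouse 4 in the CLE group and mouse 2 in the LU group. The columns of the same 4 libraries share a suffix that the columns of the other 8 lack, and no source used here says whether the letter or the suffix marks a batch. Of the ND libraries 2 of 3 carry it and of the HFD libraries 0 of 3, so the HFD group has no such library to compare within. Without these 4 libraries, the calls of *Gpam*, *Lpin2* and *Dgat1* with HFD, of *Gpd1* and *Lpin1* with CLE and of *Mogat1* with LU were lost, and *Aqp7* was called lower with HFD. These values are given with each gene.

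In HFD mice, the glycerol and triglyceride pathway did not move as a block. Of the 10 genes, 4 were called lower than in ND mice, *Pck1*, *Mogat1*, *Dgat1* and *Gpam*, where 10.8% of all genes tested were called lower. Another 3 were called higher, *Gpd1*, *Lpin2* and *Dgat2*, where 14.9% of all genes were called higher. The HFD and ND mice did not overlap in 8 of the 10 genes, against 59.5% of all genes tested. The median log2 fold change of the 10 genes was -0.31, against -0.02 over all genes. *Aqp7*, *Agpat2* and *Lpin1* were not called. Relative to adipocyte genes, *Gpam* and *Dgat1* changed sign and lost their calls, *Lpin1* changed sign and was called higher, and *Agpat2* was also called higher.

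With CLE on the HFD, 4 genes were called higher than in HFD mice, *Pck1*, *Mogat1*, *Lpin1* and *Aqp7*, where 6.33% of all genes were called higher. *Gpd1* was called lower, where 10.1% of all genes were called lower. The CLE and HFD mice did not overlap in 8 of the 10 genes, against 50.6% of all genes. With LU, 3 genes were called higher, *Pck1*, *Mogat1* and *Aqp7*, where 4.81% of all genes were, and *Gpd1* was called lower, where 7.64% were. Here 6 of the 10 genes did not overlap, against 47.6% of all genes. The medians of the 10 genes were 0.39 with CLE and 0.22 with LU, against 0.01 and 0.03 over all genes. The same HFD mice enter all 3 comparisons, with opposite sign in the first, so the values of a gene are set side by side and their directions are not read as separate evidence.

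**Figure D1:**
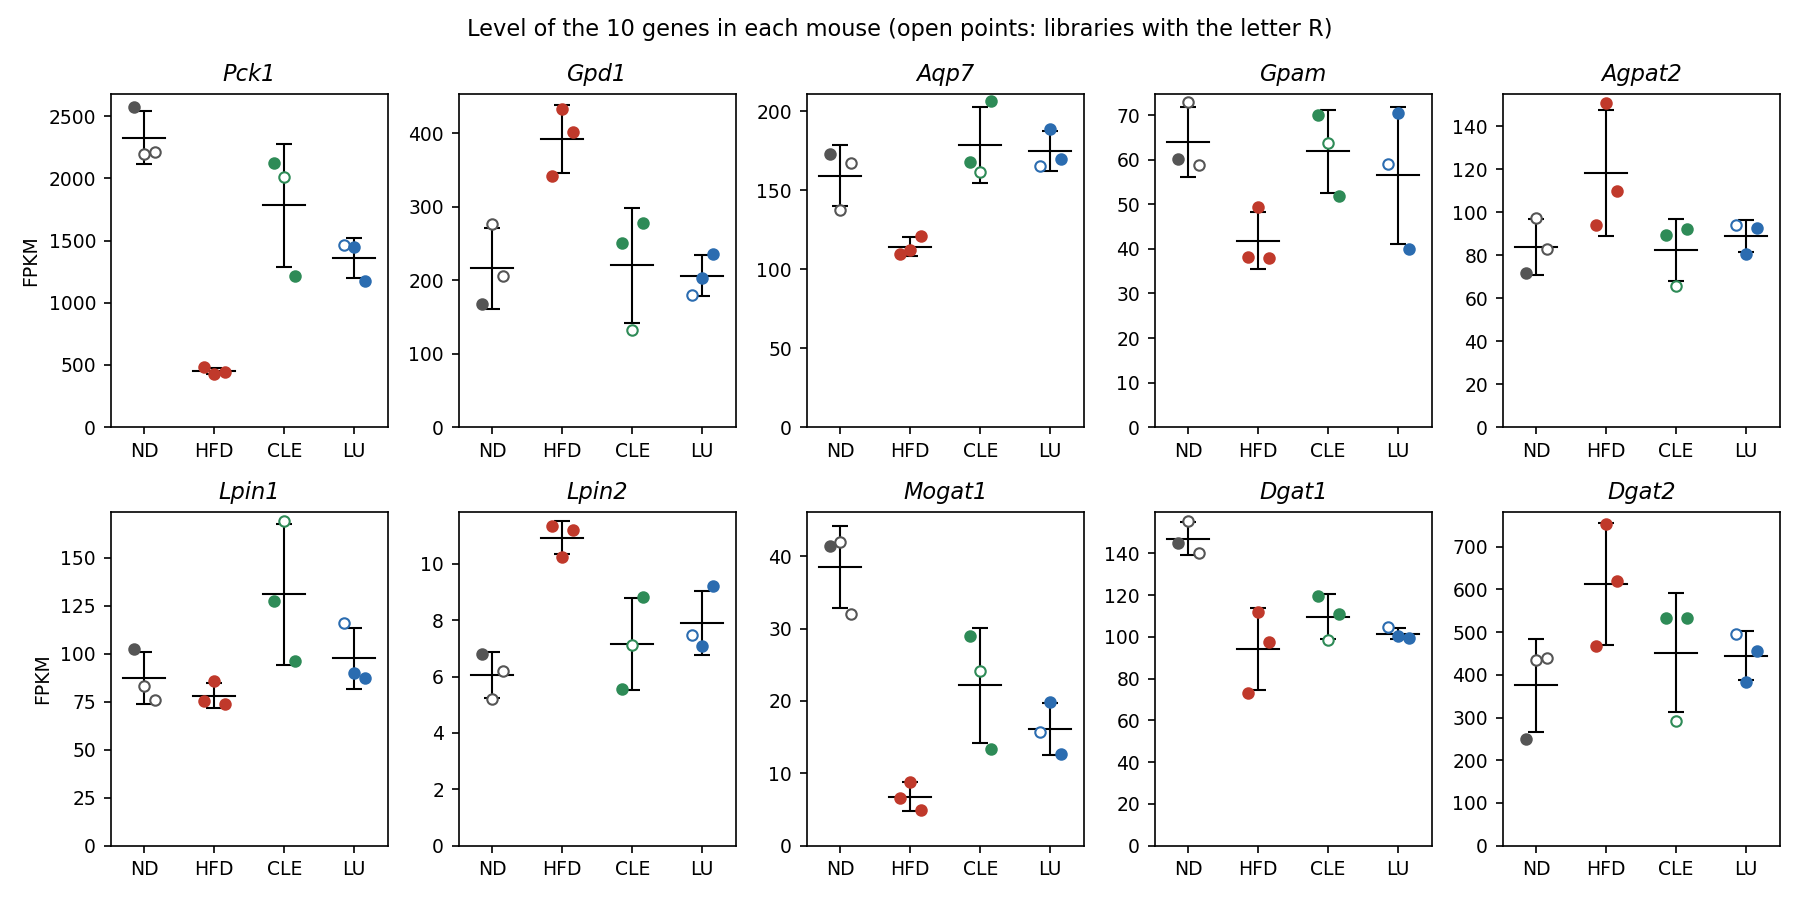
FPKM of the 10 genes in each mouse of the ND, HFD, CLE and LU groups, with the group mean as a bar and the SD as whiskers (n = 3). The 3 HFD mice sit at 429 to 483 for *Pck1* and at 4.90 to 8.84 for *Mogat1*, below every other mouse, and at 342 to 434 for *Gpd1*, above every other mouse.

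*Pck1* was the most abundant of the 10 genes in ND mice and, with *Mogat1*, differed most between groups. Its position is chromosome 2, 173153048 to 173159273, on the forward strand in GRCm38, and no other annotated gene overlaps it. The 300 bases around its RefSeq start (chr2:173152823-173153122, forward strand, GRCm38.p6) are shown because of the size of its change, and the annotated transcript that held 93.1% of its FPKM begins 25 bases from this start.
Pck1: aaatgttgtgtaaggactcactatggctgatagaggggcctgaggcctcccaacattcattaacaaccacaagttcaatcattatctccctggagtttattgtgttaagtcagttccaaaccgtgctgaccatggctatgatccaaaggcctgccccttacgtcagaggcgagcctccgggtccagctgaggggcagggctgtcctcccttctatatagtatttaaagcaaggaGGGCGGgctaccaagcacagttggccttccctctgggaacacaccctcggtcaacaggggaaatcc
The capitals mark the matches of 8 short motifs searched on both strands: the TATA box (TATAAA), the CCAAT box (CCAAT), the GC box (GGGCGG), the E-box (CACGTG), the cAMP response element (TGACGTCA), a C/EBP motif (TTGCNNAA), the core site of nuclear receptors (AGGTCA) and a pair of such core sites with 1 base between them (AGGTCANAGGTCA). In the *Pck1* window the only match was a GC box 16 bases upstream of the start. A GC box was present in 35.6% of 32817 windows of the same length in the RefSeq table. Of the other motifs, the share of windows was 13.6% for the TATA box, 37.4% for the CCAAT box, 7.15% for the E-box, 1.79% for the cAMP response element, 10.8% for the C/EBP motif, 16.3% for the core site and 0.0396% for the pair. A match is a description of letters, and the absence of one says only that these letters are not in this window.

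*Pck1* had 2575, 2199 and 2211 FPKM in ND mice 2, 3 and 4. It had 483, 429 and 442 FPKM in HFD mice 12, 15 and 18. It had 2123, 2009.5 and 1217 FPKM in CLE mice 2, 4 and 11, and 1463, 1448 and 1178 FPKM in LU mice 2, 3 and 8. Every HFD mouse was below every other mouse, the CLE and LU mice overlapped each other, and all of these lay below the ND mice. The group means were 2328 ± 213 FPKM (SD, n = 3) in ND, 451 ± 27.8 in HFD, 1783 ± 494 in CLE and 1363 ± 161 in LU. On the log2 scale *Pck1* fell by 2.36 with HFD (SE 0.18, limma adjusted p = 1.9e-06). It rose by 1.94 with CLE (SE 0.18, limma adjusted p = 3.2e-05) and by 1.59 with LU (SE 0.18, limma adjusted p = 0.00021). All 3 calls were made in each of the 12 fits that left out 1 library. Relative to the mean of 5 adipocyte genes in each library (*Adipoq*, *Plin1*, *Cidec*, *Lipe* and *Fabp4*, a list chosen after the data were seen), the changes of *Pck1* were -1.60, 1.28 and 1.04 and all 3 were called.

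*Gpd1* encodes the cytosolic glycerol 3-phosphate dehydrogenase, which makes glycerol 3-phosphate from dihydroxyacetone phosphate, the shared product of glycolysis and glyceroneogenesis. It lies on chromosome 15, 99717515 to 99725005, on the forward strand. It moved the other way from *Pck1*. *Gpd1* had 168, 276 and 205 FPKM in ND mice 2, 3 and 4. It had 342, 434 and 401 FPKM in HFD mice 12, 15 and 18. It had 250.1, 132 and 278 FPKM in CLE mice 2, 4 and 11, and 179.7, 203 and 235 FPKM in LU mice 2, 3 and 8. The HFD mice were above all the others, and the ND, CLE and LU mice overlapped. The log2 fold change was 0.88 with HFD (SE 0.26, limma adjusted p = 0.014), -0.89 with CLE (SE 0.26, limma adjusted p = 0.0196) and -0.93 with LU (SE 0.26, limma adjusted p = 0.021). Without CLE mouse 4, the lowest of all and a library with the letter R, the change with CLE was -0.56 and not called (limma adjusted p = 0.058), and it had the same size without all 4 libraries with the letter R (limma adjusted p = 0.022). The call with HFD was lost without ND mouse 2 (0.71, limma adjusted p = 0.0593), that with CLE also without HFD mouse 15 or 18, and that with LU without HFD mouse 15 or 18 or LU mouse 2 or 3, with changes of -0.82 and -0.88 with CLE and of -0.85, -0.91, -0.83 and -0.92 with LU.

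*Aqp7* encodes the water and glycerol channel through which fat cells release glycerol when triglyceride is broken down. It lies on chromosome 4, 41033074 to 41048139, on the reverse strand. *Aqp7* had 173, 137 and 167 FPKM in ND mice 2, 3 and 4. It had 109, 112 and 121 FPKM in HFD mice 12, 15 and 18. It had 168, 162 and 206 FPKM in CLE mice 2, 4 and 11, and 165, 189 and 170.1 FPKM in LU mice 2, 3 and 8. All HFD mice were below all the others, while ND, CLE and LU mice overlapped. The difference between HFD and ND mice was -0.47 (SE 0.12, limma adjusted p = 0.0059), too small for a call. Without the libraries with the letter R, which leaves 1 ND mouse, it was -0.60 and *Aqp7* was called lower (limma adjusted p = 0.019). *Aqp7* rose by 0.63 with CLE (SE 0.12, limma adjusted p = 0.0017) and by 0.61 with LU (SE 0.12, limma adjusted p = 0.0033). Both rises lay just above the fold change required. The value with CLE was 0.53 and not called without CLE mouse 11, and that with LU was 0.58 without HFD mouse 12 and 0.55 without LU mouse 3, also not called. With LU the value was also 0.58 and not called after median ratio scaling of the libraries and for the most abundant transcript alone. Relative to the 5 adipocyte genes, the changes of *Aqp7* were 0.29, -0.02 and 0.06, and none of the 3 was called, with limma adjusted p of 0.088, 0.89 and 0.73.

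*Gpam* encodes the mitochondrial glycerol 3-phosphate acyltransferase, which attaches the first fatty acid. It lies on chromosome 19, 55067268 to 55127238, on the reverse strand. *Gpam* had 60.1, 73.0 and 58.7 FPKM in ND mice 2, 3 and 4. It had 38.3, 49.4 and 38.0 FPKM in HFD mice 12, 15 and 18. It had 70.0, 63.7 and 51.8 FPKM in CLE mice 2, 4 and 11, and 59.1, 70.5 and 40.0 FPKM in LU mice 2, 3 and 8. HFD mice were below ND and CLE mice, and LU mouse 8 lay among the HFD mice. *Gpam* fell by 0.60 with HFD (SE 0.19, limma adjusted p = 0.022), close to the fold change required. The difference was 0.55 between CLE and HFD (SE 0.19, limma adjusted p = 0.047), under a fold change of 1.5, and 0.40 between LU and HFD (SE 0.19, 95% interval -0.03 to 0.82, limma adjusted p = 0.15). Without ND mouse 3, HFD mouse 12 or HFD mouse 18, the change with HFD was -0.50, -0.54 and -0.54 and not called, and without the libraries with the letter R it was -0.52 (limma adjusted p = 0.24). The change with CLE was called without HFD mouse 15 (0.67) or CLE mouse 11 (0.67), and that with LU without LU mouse 8 (0.62). Neither change was stable in size. Over the 22 alternatives that keep the level as measured, it ranged from 0.014 to 0.74 with CLE. With LU it ranged from -0.049 to 0.71 over these alternatives, so its sign was not kept in all of them.

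Of all 10 genes, *Gpam* rested most on transcripts assembled from the reads. Assembled transcripts that share a splice junction with the annotated one, 10 of its 12 transcripts, held 84.3% of its FPKM in ND, 70.0% in HFD, 79.1% in CLE and 77.6% in LU mice. In the other 9 genes such transcripts held at most 29.9% in any library. Without them, the difference of *Gpam* between HFD and ND mice changed sign, from -0.60 to 0.33 (limma adjusted p = 0.31). The annotated transcript had 7.05 ± 0.692 FPKM (SD, n = 3) in ND, 9.60 ± 1.81 in HFD, 12.0 ± 6.37 in CLE and 7.48 ± 3.25 in LU mice. The most abundant transcript, with 31.9% of the total, is an assembled one with its 5′ end at 55095746. It had 20.03 ± 3.11 FPKM in ND, 11.7 ± 3.56 in HFD, 19.8 ± 2.86 in CLE and 20.1 ± 7.34 in LU mice. The mean of this transcript was lower in HFD than in ND mice, like the sum, while that of the annotated transcript was higher. The most abundant transcript was tested alone as an alternative setting, where the lower call of *Gpam* with HFD was kept. The annotated transcript was not tested alone.

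RefSeq gives *Gpam* a pair of starts, whose windows are shown because 4 of its 12 transcripts begin near the upstream one and 3 near the downstream one, while 5 begin near neither (chr19:55127189-55127488 and chr19:55099428-55099727, reverse strand, GRCm38.p6).
Gpam upstream: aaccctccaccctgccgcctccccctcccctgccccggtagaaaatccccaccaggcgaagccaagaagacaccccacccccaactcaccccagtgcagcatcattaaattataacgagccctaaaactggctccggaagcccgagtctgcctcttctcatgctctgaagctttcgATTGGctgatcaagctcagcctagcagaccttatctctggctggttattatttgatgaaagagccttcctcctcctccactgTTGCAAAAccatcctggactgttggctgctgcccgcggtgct
Gpam downstream: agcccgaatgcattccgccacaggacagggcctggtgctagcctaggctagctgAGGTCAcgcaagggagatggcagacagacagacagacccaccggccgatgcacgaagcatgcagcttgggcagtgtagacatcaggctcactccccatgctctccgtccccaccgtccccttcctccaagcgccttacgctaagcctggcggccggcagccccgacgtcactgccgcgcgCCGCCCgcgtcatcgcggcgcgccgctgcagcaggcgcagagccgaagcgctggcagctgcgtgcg
With the same motifs in capitals, the upstream window held a CCAAT box 74 bases upstream of its start and the C/EBP motif 8 bases downstream. The downstream window held a GC box 16 bases and a core site 196 bases upstream of its start. Transcripts with their 5′ end within 1000 bases of the upstream start summed to 9.42, 16.2 and 12.9 FPKM in ND mice and 7.90, 13.5 and 6.27 FPKM in HFD mice. Those near the downstream start summed to 25.1, 33.6 and 18.2 FPKM in ND mice and 17.7, 18.8 and 21.5 FPKM in HFD mice. Near each start the ND and HFD mice overlapped. The transcripts that begin near neither start, including the most abundant one, summed to 25.5, 23.1 and 27.6 FPKM in ND mice and 12.7, 17.1 and 10.2 FPKM in HFD mice, which did not overlap. A 5′ end of an assembled transcript can fall short of the true start, so these sums describe the deposited transcripts.

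**Figure D2:**
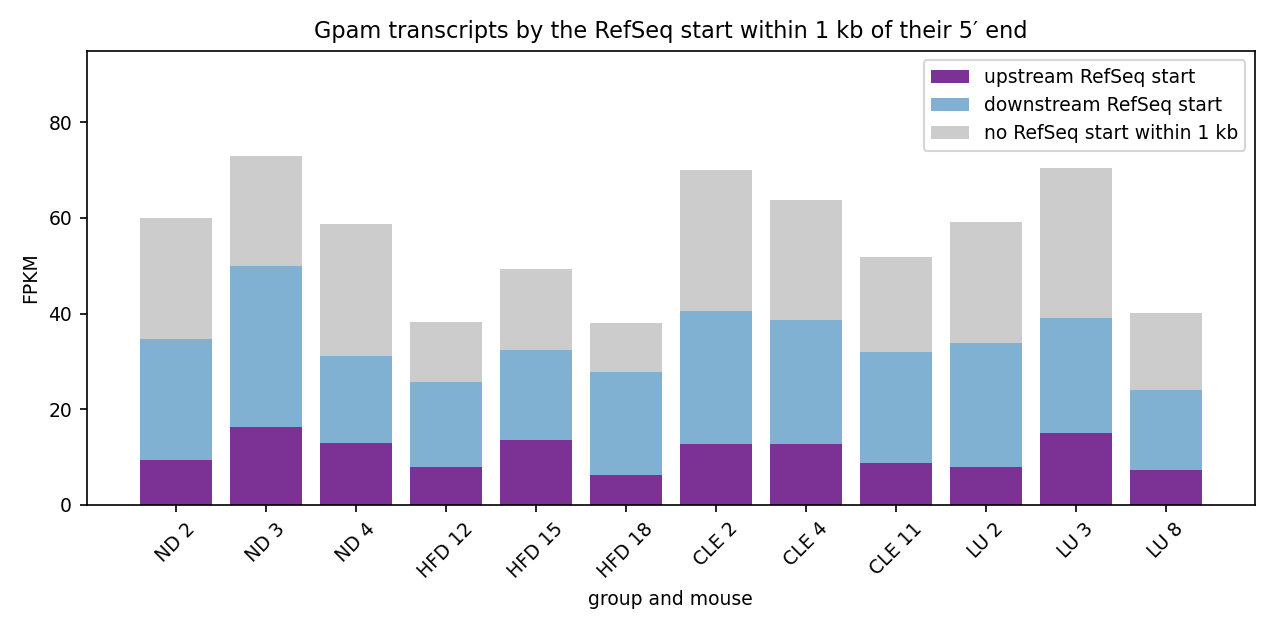
FPKM of *Gpam* in each mouse, stacked by whether the 5′ end of a transcript lies within 1 kb of the upstream RefSeq start, the downstream start or neither. The part near neither start is 23.1 to 27.6 FPKM in ND mice and 10.2 to 17.1 in HFD mice.

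*Agpat2* encodes the acyltransferase that attaches the second fatty acid and makes phosphatidic acid. Loss of its human counterpart causes a generalized lipodystrophy. It lies on chromosome 2, 26593057 to 26604417, on the reverse strand. *Agpat2* had 71.7, 97.4 and 82.7 FPKM in ND mice 2, 3 and 4. It had 94.0, 151 and 110.0 FPKM in HFD mice 12, 15 and 18. It had 89.5, 65.9 and 92.2 FPKM in CLE mice 2, 4 and 11, and 94.2, 80.5 and 92.6 FPKM in LU mice 2, 3 and 8. HFD mouse 12 overlapped the ND and LU mice, and CLE mice were below all HFD mice. The difference was 0.47 with HFD (limma adjusted p = 0.048), under a fold change of 1.5, -0.50 with CLE (limma adjusted p = 0.053) and -0.38 with LU (limma adjusted p = 0.15), with an SE of 0.18 in each. It passed the threshold with HFD without ND mouse 3 (0.59) or HFD mouse 12 (0.62), and with CLE without HFD mouse 12 (-0.65) or CLE mouse 11 (-0.59) or for the most abundant transcript alone (-0.59). Relative to the 5 adipocyte genes, it was called higher with HFD (1.24) and lower with CLE (-1.16) and LU (-0.93). *Egfl7*, a gene of endothelial cells on the opposite strand, overlaps it and had 122 ± 23.4 FPKM (SD, n = 3) in ND and 56.0 ± 11.3 in HFD mice, the opposite direction.

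*Lpin1* and *Lpin2* encode lipins, phosphatases that turn phosphatidic acid into diacylglycerol, and lipin 1 is the main form in fat cells. *Lpin1* lies on chromosome 12, 16535669 to 16610966, on the reverse strand. *Lpin1* had 103, 83.4 and 76.1 FPKM in ND mice 2, 3 and 4. It had 75.2, 86.0 and 73.7 FPKM in HFD mice 12, 15 and 18. It had 128, 169 and 96.2 FPKM in CLE mice 2, 4 and 11, and 116, 90.0 and 87.3 FPKM in LU mice 2, 3 and 8. CLE and LU mice were above all HFD mice, and ND and HFD mice overlapped. *Lpin1* rose by 0.70 with CLE (SE 0.19, limma adjusted p = 0.015). With LU its difference was 0.31 (95% interval -0.11 to 0.72, limma adjusted p = 0.25) and between HFD and ND -0.15 (95% interval -0.56 to 0.27, limma adjusted p = 0.54). Without CLE mouse 4, its highest value, the change with CLE was 0.50 and not called (limma adjusted p = 0.058), and it was 0.50 and not called without all 4 libraries with the letter R (limma adjusted p = 0.038). Relative to the 5 adipocyte genes, *Lpin1* was called higher with HFD (0.62), and its change with CLE was 0.04 (limma adjusted p = 0.84).

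*Lpin2* lies on chromosome 17, 71182560 to 71249817, on the forward strand and was the least abundant of the 10 genes outside the HFD group. *Lpin2* had 6.79, 5.19 and 6.18 FPKM in ND mice 2, 3 and 4. It had 11.3, 10.2 and 11.2 FPKM in HFD mice 12, 15 and 18. It had 5.55, 7.11 and 8.81 FPKM in CLE mice 2, 4 and 11, and 7.46, 7.08 and 9.20 FPKM in LU mice 2, 3 and 8. All HFD mice were above all the others. *Lpin2* rose by 0.76 with HFD (SE 0.15, limma adjusted p = 0.0012). Its difference was -0.57 with CLE (SE 0.15, limma adjusted p = 0.012), just under a fold change of 1.5, and -0.43 with LU (SE 0.15, limma adjusted p = 0.0501). The change with CLE was called without HFD mouse 15 (-0.61) or CLE mouse 11 (-0.71) and with a pseudocount of 0.1 (-0.63). Without the libraries with the letter R, the rise with HFD was 0.61 and not called (limma adjusted p = 0.075), and for the most abundant transcript alone it was 0.57, under the fold change required. The ratio of *Lpin1* to *Lpin2* within a library was 14.5 ± 1.96 (SD, n = 3) in ND, 7.20 ± 1.03 in HFD, 19.2 ± 7.22 in CLE and 12.6 ± 3.04 in LU mice. The highest ratio among HFD mice, 8.39, was below the lowest in the other groups, 9.49.

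*Mogat1* encodes a monoacylglycerol acyltransferase, which makes diacylglycerol from monoacylglycerol and so reaches it without glycerol 3-phosphate. It lies on chromosome 1, 78510991 to 78538173, on the forward strand. Its RefSeq window (chr1:78510810-78511109, forward strand, GRCm38.p6) is shown beside that of *Pck1*, since these were the members with the largest changes.
Mogat1: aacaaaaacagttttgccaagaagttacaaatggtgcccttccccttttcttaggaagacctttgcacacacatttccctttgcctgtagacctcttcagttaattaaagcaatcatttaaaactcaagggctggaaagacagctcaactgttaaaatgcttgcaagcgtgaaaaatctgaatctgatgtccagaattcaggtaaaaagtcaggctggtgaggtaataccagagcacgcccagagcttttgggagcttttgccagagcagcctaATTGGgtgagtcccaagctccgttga
It held a CCAAT box 24 bases downstream of the start and no other of the motifs. The most abundant transcript in the table begins 752 bases downstream of this RefSeq start, so the window may not be where most of its RNA begins. Of the 11 windows given for 7 of the 10 genes, 5 held a GC box, 4 a core site, 3 a CCAAT box, 2 the C/EBP motif, 1 an E-box and 0 a TATA box, a cAMP response element or the pair of core sites. The windows with a core site belong to *Aqp7*, *Gpam* and *Lpin1*, and those of *Aqp7* overlap and share a site. Of the *Lpin1* transcripts, 0 begin within 1000 bases of its RefSeq start, and the most abundant one begins 21196 bases from it.

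*Mogat1* had 41.5, 42.0 and 31.9 FPKM in ND mice 2, 3 and 4. It had 6.63, 8.84 and 4.90 FPKM in HFD mice 12, 15 and 18. It had 28.9, 24.2 and 13.3 FPKM in CLE mice 2, 4 and 11, and 15.7, 19.8 and 12.7 FPKM in LU mice 2, 3 and 8. HFD mice were below all the others, ND mice above all the others, and CLE and LU mice overlapped between them. *Mogat1* fell by 2.36 with HFD (SE 0.27, limma adjusted p = 2.9e-05). It rose by 1.54 with CLE (SE 0.27, limma adjusted p = 0.0012) and by 1.14 with LU (SE 0.27, limma adjusted p = 0.0092). The 3 calls were made in each fit that left out 1 library. The rise with LU was 1.15 without the libraries with the letter R and not called (limma adjusted p = 0.058). Relative to the 5 adipocyte genes, the changes were -1.60, 0.88 and 0.59, all called. *BC035947*, which overlaps *Mogat1* on the opposite strand, had 4.14 ± 0.76 FPKM (SD, n = 3) in ND, 0.448 ± 0.0606 in HFD, 1.77 ± 0.587 in CLE and 1.49 ± 0.386 in LU mice, and reads of the pair cannot be told apart where strand is not stated.

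*Dgat1* and *Dgat2* encode the unrelated diacylglycerol acyltransferases that attach the last fatty acid. *Dgat1* lies on chromosome 15, 76502015 to 76511953, and *Dgat2* on chromosome 7, 99153658 to 99182719, both on the reverse strand. *Dgat1* had 145, 156 and 140.2 FPKM in ND mice 2, 3 and 4 and 73.1, 112 and 97.4 FPKM in HFD mice 12, 15 and 18. It had 119.8, 98.5 and 111 FPKM in CLE mice 2, 4 and 11 and 105, 100.4 and 99.7 FPKM in LU mice 2, 3 and 8. ND mice were above all the others, and HFD, CLE and LU mice overlapped. *Dgat1* fell by 0.66 with HFD (SE 0.14, limma adjusted p = 0.0019). It was not called with CLE (0.24, 95% interval -0.06 to 0.53, limma adjusted p = 0.20) or LU (0.13, 95% interval -0.17 to 0.43, limma adjusted p = 0.51). Without HFD mouse 12, its lowest value, the change was -0.49, under a fold change of 1.5, and without the libraries with the letter R it was -0.64 with a limma adjusted p of 0.053.

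*Dgat2* had 250.1, 435 and 440.5 FPKM in ND mice 2, 3 and 4. It had 466, 752 and 620.3 FPKM in HFD mice 12, 15 and 18. It had 532, 291 and 533 FPKM in CLE mice 2, 4 and 11, and 496, 383 and 456 FPKM in LU mice 2, 3 and 8. HFD mice were above all ND mice and overlapped CLE and LU mice. The rise with HFD was 0.73 (SE 0.28, limma adjusted p = 0.046), and it was the weakest of the calls. It was not called without ND mouse 2 (0.46), HFD mouse 15 (0.57), HFD mouse 18 (0.70) or any single LU mouse (0.73, with limma adjusted p of 0.0533 to 0.0563), nor with a pseudocount of 0.1 (0.73, limma adjusted p = 0.056) or no filter on low values (0.73, limma adjusted p = 0.0898). It was 0.65 and not called without the assembled transcripts that share a junction (limma adjusted p = 0.107) and for the most abundant transcript alone (limma adjusted p = 0.109), and 0.77 and not called with the letter R as a covariate (limma adjusted p = 0.087). *Dgat2* was not called with CLE (-0.47, 95% interval -1.07 to 0.14, limma adjusted p = 0.22) or LU (-0.44, 95% interval -1.05 to 0.16, limma adjusted p = 0.26). The pair thus moved in opposite directions with HFD as measured, while relative to the 5 adipocyte genes *Dgat1* had a change of 0.11 and was not called. The ratio of *Dgat2* to *Dgat1* within a library was 2.55 ± 0.74 (SD, n = 3) in ND, 6.49 ± 0.198 in HFD, 4.07 ± 0.981 in CLE and 4.38 ± 0.494 in LU mice. HFD mice had ratios of 6.37 to 6.72, above the highest of the other groups, 4.81.

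**Figure D3:**
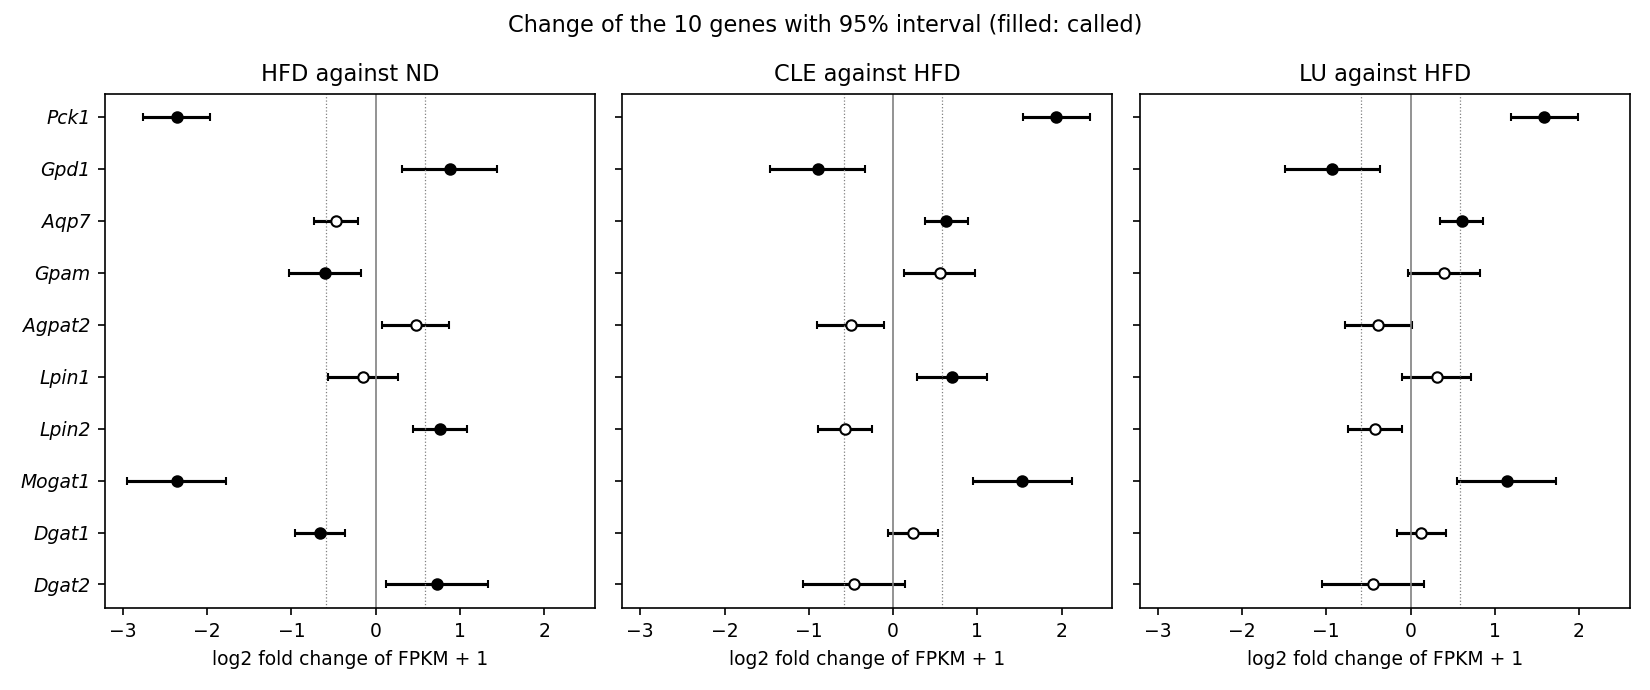
log2 fold change of FPKM + 1 for the 10 genes in HFD against ND, CLE against HFD and LU against HFD, with 95% intervals from limma, filled points for called genes and dotted lines at a fold change of 1.5. *Pck1* and *Mogat1* are farthest from 0 in each panel, at -2.36 and -2.36 with HFD, 1.94 and 1.54 with CLE and 1.59 and 1.14 with LU.

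In order of mean level per length, *Pck1*, *Dgat2* and *Gpd1* led in the ND, CLE and LU groups and *Mogat1* and *Lpin2* came last. In ND mice the order below *Pck1* was *Dgat2* (375 ± 108 FPKM), *Gpd1* (216 ± 55.1), *Aqp7* (159 ± 19.4), *Dgat1* (147 ± 7.92), *Lpin1* (87.4 ± 13.8), *Agpat2* (83.9 ± 12.9), *Gpam* (63.9 ± 7.88), *Mogat1* (38.5 ± 5.66) and *Lpin2* (6.05 ± 0.81). Neighbours overlapped over mice except *Pck1* and *Dgat2*, *Dgat1* and *Lpin1*, *Gpam* and *Mogat1*, and *Mogat1* and *Lpin2*. In HFD mice *Dgat2* (613 ± 143 FPKM) stood above *Pck1* (451 ± 27.8), with overlap between the lowest *Dgat2* and the highest *Pck1*, and *Lpin2* (10.9 ± 0.595) stood above *Mogat1* (6.79 ± 1.98) without overlap.

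Between CLE and LU none of the 10 genes was called (0 of 10), where 0.00783% of all genes were called, and 0 of the 10 had an unadjusted p under 0.05 in limma. The largest differences were 0.39 for *Lpin1* (95% interval -0.02 to 0.81), 0.39 for *Mogat1* (-0.19 to 0.98) and 0.35 for *Pck1* (-0.05 to 0.75), all toward CLE. These intervals leave room for differences past a fold change of 1.5. Against ND mice, CLE mice had 0 of 10 genes called, where 2.91% of all genes were called, and 4 of the 10 had an unadjusted p under 0.05 in limma. The share of all genes under this unadjusted p was not computed. LU mice had *Pck1* (-0.78, SE 0.18, limma adjusted p = 0.018) and *Mogat1* (-1.22, SE 0.27, limma adjusted p = 0.013) called lower than ND mice, where 6.59% of all genes were called. In CLE mice the differences from ND were -0.42 for *Pck1* (95% interval -0.82 to -0.02, limma adjusted p = 0.19) and -0.83 for *Mogat1* (95% interval -1.41 to -0.24, limma adjusted p = 0.092), and the groups did not overlap in either gene. *Dgat1* differed by -0.42 (limma adjusted p = 0.088), also without overlap, and *Lpin1* by 0.55 (limma adjusted p = 0.11), with overlap. Between LU and ND, *Dgat1* differed by -0.53 (limma adjusted p = 0.026), under a fold change of 1.5, and *Lpin2* by 0.34 (limma adjusted p = 0.16). The LU and ND mice did not overlap in *Dgat1* or *Lpin2*. The calls between LU and ND were lost for *Pck1* and *Mogat1* without LU mouse 8 (-0.67 and -1.07) and for *Pck1* without ND mouse 2 (-0.70). Without the libraries with the letter R, which leaves 1 ND mouse, the values were -0.98 for *Pck1* (limma adjusted p = 0.10) and -1.33 for *Mogat1* (limma adjusted p = 0.13).

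CLE mice 4 and 11 each stood apart within their group in some of the genes. Mouse 4, a library with the letter R, had 132 FPKM of *Gpd1* against 250.1 and 278, 291 of *Dgat2* against 532 and 533, 65.9 of *Agpat2* against 89.5 and 92.2, and 169 of *Lpin1* against 128 and 96.2. Without it, 3 genes in place of 5 were called with CLE. Mouse 11 had the lowest *Pck1*, *Mogat1*, *Gpam* and *Lpin1* and the highest *Lpin2*, *Gpd1* and *Aqp7* of the 3 CLE mice. Its macrophage genes summed to 1045 FPKM, against 599 and 710.4 in CLE mice 2 and 4, and its adipocyte genes to 25424 FPKM, against 28024 and 26712. Mouse 11 also had the highest levels of skeletal muscle genes, with *Ckm* at 5.29 FPKM against 0 in CLE mice 2 and 4, *Myh4* at 2.997 against 0.0116 and 0, and a sum of 19.7 FPKM over 4 muscle genes, where the highest sum in the ND, HFD and LU groups was 5.82. Without it, 7 genes were called with CLE. *Pck1* then rose by 2.19 and *Mogat1* by 1.85 with CLE on the log2 scale. The part of the macrophage, adipocyte and muscle genes in these values was not tested.

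**Figure D4:**
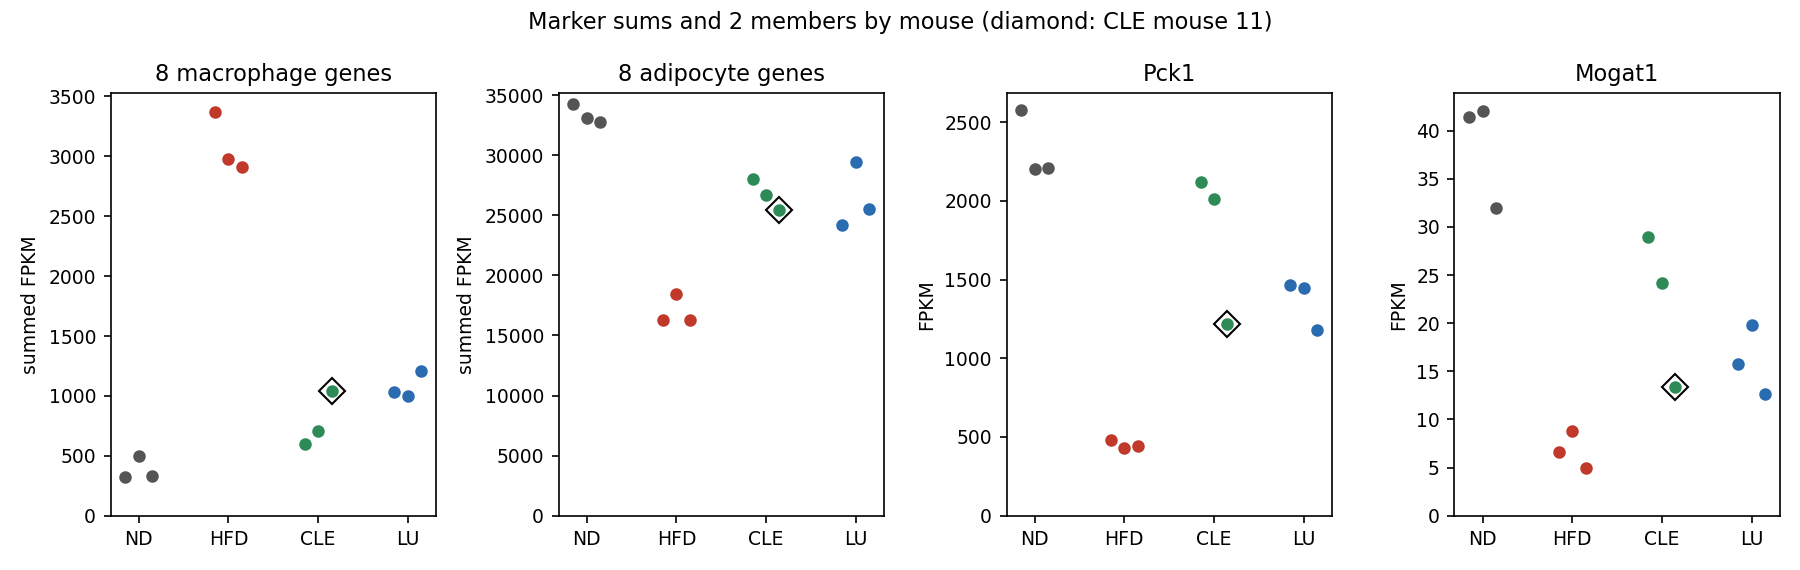
Summed FPKM of 8 macrophage and 8 adipocyte genes, and FPKM of *Pck1* and *Mogat1*, in each mouse, with CLE mouse 11 marked by a diamond. HFD mice are highest for macrophage genes (2909 to 3372) and lowest in the other 3 panels, and of the CLE mice, mouse 11 lies closest to the HFD mice in all 4.

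The 5 adipocyte genes themselves fell with HFD, *Adipoq* by 0.84 and *Fabp4* by 0.85 on the log2 scale. Set against them, *Pck1* and *Mogat1* still fell and *Gpd1*, *Lpin2* and *Dgat2* still rose with HFD, each of them called. *Gpam* and *Dgat1* changed sign to 0.16 (limma adjusted p = 0.34) and 0.11 (limma adjusted p = 0.48) and were no longer called. *Lpin1* changed sign to 0.62 and was called higher, and *Aqp7*, uncalled in both, changed sign to 0.29. With CLE, *Gpam*, *Dgat1* and *Aqp7* changed sign to -0.11, -0.42 and -0.02, and with LU *Gpam*, *Dgat1* and *Lpin1* to -0.15, -0.42 and -0.24, none of them called. With CLE and LU, *Gpd1*, *Agpat2*, *Lpin2* and *Dgat2* were called lower relative to these genes. The values in this order were -1.55, -1.16, -1.22 and -1.12 with CLE and -1.48, -0.93, -0.98 and -0.99 with LU. *Pck1* and *Mogat1* were called higher with both. Against all 8 adipocyte genes, which include *Lep* and other genes that moved strongly with diet, the rise of *Mogat1* with LU was 0.51 and under the fold change of 1.5.

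**Figure D5:**
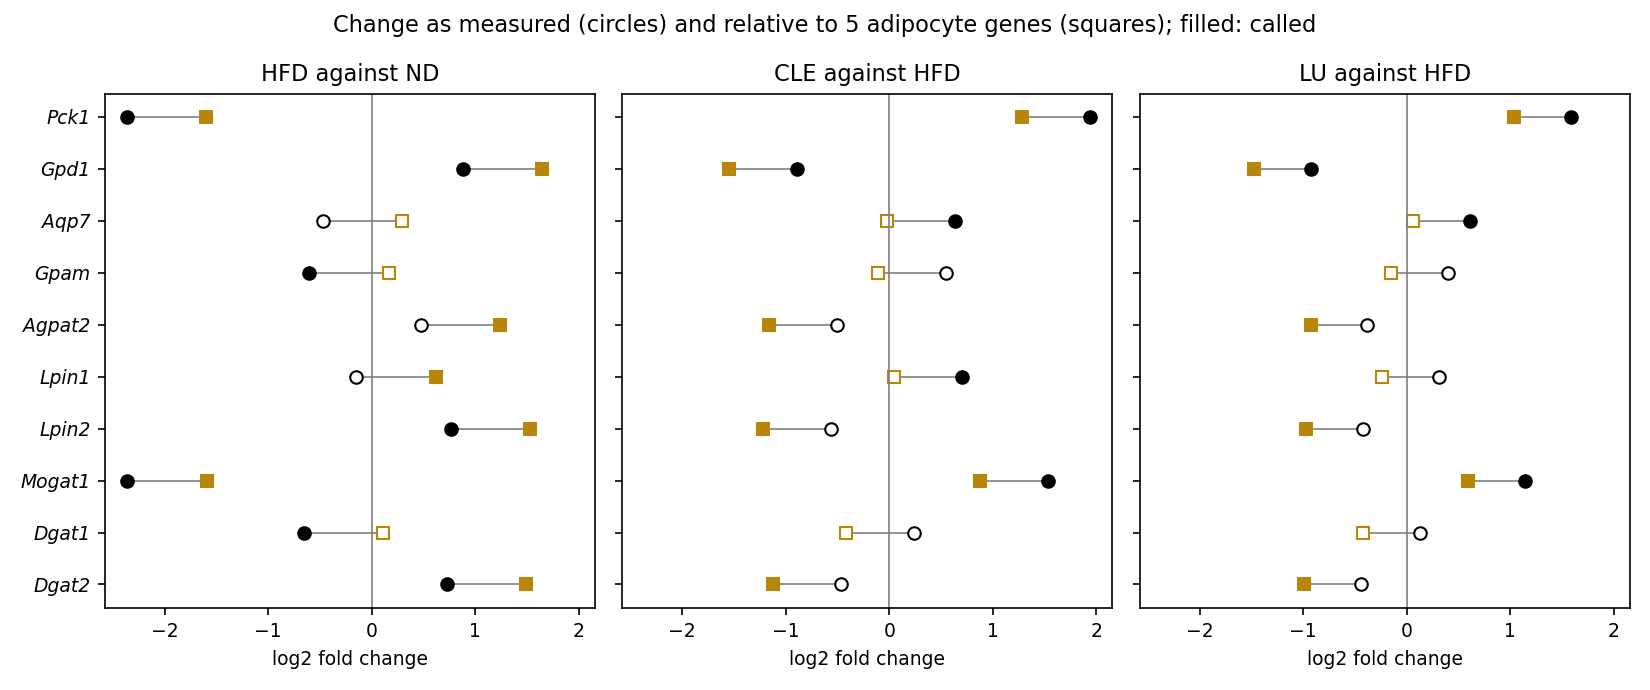
log2 fold change of the 10 genes as measured (circles) and relative to the mean of 5 adipocyte genes in each library (squares), filled where called. *Pck1*, *Mogat1*, *Gpd1*, *Lpin2*, *Dgat2* and *Agpat2* keep their side of 0 in all 3 panels. *Gpam* and *Dgat1* cross it in all 3, to 0.16 and 0.11 with HFD, *Lpin1* with HFD and LU, and *Aqp7* with HFD and CLE.

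Of the other genes of glycerol 3-phosphate supply and use, 10 of 11 passed the filter on low values. With HFD, 2 were called lower and 2 higher (10.8% and 14.9% of all genes). The median of the 10 was -0.13, against -0.02 over all genes. *Pcx*, the pyruvate carboxylase that feeds glyceroneogenesis, fell by 0.72 on the log2 scale from 453 to 273 FPKM (SE 0.14, limma adjusted p = 0.0011). *Gpd2*, the mitochondrial glycerol 3-phosphate dehydrogenase, fell by 0.59 from 13.4 to 8.51 FPKM (SE 0.14, limma adjusted p = 0.0044). *Gk*, the glycerol kinase, rose by 0.81 from 3.75 to 7.34 FPKM (SE 0.22, limma adjusted p = 0.0087), and *Tpi1*, the triose phosphate isomerase of glycolysis, by 0.68 from 198 to 304 FPKM (SE 0.23, limma adjusted p = 0.029). With CLE, 0 of these genes were called higher, where 6.33% of all genes were, and 1 was called lower, where 10.1% of all genes were, *Gk* by -0.83 (SE 0.22, limma adjusted p = 0.012). With LU, 0 of 10 were called in limma, where 4.81% of all genes were called higher and 7.64% lower. An unadjusted p under 0.05 was found for 3 of them in limma, and the share of all genes under it was not computed. *Gk* was at 3.44, 3.32 and 7.84 FPKM in the 3 LU mice, the last within the HFD range of 6.97 to 7.97.

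Of the other genes of acylation and phosphate removal, 12 of 13 passed the filter, 1 was called lower and 1 higher with HFD (10.8% and 14.9% of all genes), and the median was -0.16. *Gpat3*, an acyltransferase of the endoplasmic reticulum for the same step as *Gpam* and abundant in fat, had 63.2, 62.2 and 40.0 FPKM in ND mice and 13.7, 24.3 and 19.3 FPKM in HFD mice. It had 56.7, 47.8 and 43.6 FPKM in CLE mice and 41.6, 49.1 and 29.9 FPKM in LU mice. HFD mice were below all others. *Gpat3* fell by 1.49 with HFD (SE 0.24, limma adjusted p = 0.00034) and rose by 1.35 with CLE (SE 0.24, limma adjusted p = 0.0012) and by 1.04 with LU (SE 0.24, limma adjusted p = 0.0080). *Agpat4*, a low relative of *Agpat2*, rose by 0.71 with HFD (SE 0.12, limma adjusted p = 0.00056) and fell by 0.72 with CLE (SE 0.12, limma adjusted p = 0.0011). *Plpp1*, a lipid phosphate phosphatase, rose by 0.81 with CLE (SE 0.19, limma adjusted p = 0.0068) and by 0.67 with LU (SE 0.19, limma adjusted p = 0.022). In all, 2 of the 12 genes were called higher and 1 lower with CLE (6.33% and 10.1% of all genes), and 2 higher and 0 lower with LU (4.81% and 7.64%).

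Of 10 transcription factors and coactivators known to act on these genes, 0 were called in any of the 3 comparisons by limma, and 3 had an unadjusted p under 0.05 with HFD, 4 with CLE and 3 with LU. Of all genes tested, 14.9% were called higher and 10.8% lower with HFD, 6.33% and 10.1% with CLE, and 4.81% and 7.64% with LU. Shares under a p alone were not computed, so counts by p alone are not read as a result about these 10 factors. With HFD, 3 of them had an adjusted p under 0.05 and lay under the fold change of 1.5. They are named after their values were seen: *Pparg*, the main regulator of fat cell genes, by -0.44 (limma adjusted p = 0.016), *Cebpa* by -0.48 (limma adjusted p = 0.0081) and the glucocorticoid receptor gene *Nr3c1* by -0.26 (limma adjusted p = 0.031). With CLE, also 3 did so, *Pparg* at 0.44 (limma adjusted p = 0.024), *Cebpa* at 0.46 (limma adjusted p = 0.016) and *Rxra*, the partner of *Pparg* on DNA, at 0.50 (limma adjusted p = 0.0062), and with LU 1, *Pparg* at 0.42 (limma adjusted p = 0.039). The medians of the 10 were -0.23 with HFD, 0.11 with CLE and 0.21 with LU.

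Over the 12 libraries, Pearson's r of log2(FPKM + 1) was highest between *Pck1* and *Mogat1* among pairs of the 10 genes (0.95), and lowest between *Lpin2* and *Mogat1* (-0.95). *Agpat2* had an r of 0.90 with *Dgat2* and 0.88 with *Gpd1*. These values describe 12 points that share the 4 diets, so a gene that differs between diets correlates with any other that does. Outside the 10 genes, the gene most like *Pck1* was *Agmo* (0.99), most like *Mogat1* was *Scp2* (0.99), most like *Lpin2* was *Tpcn2* (0.98) and most like *Aqp7* was *Fam43a* (0.98). For *Gpd1* it was *Kmt5a* (0.96), for *Gpam* *Uqcc1* (0.96), for *Dgat2* *Unc5a* (0.95), for *Agpat2* *Slc25a10* (0.93), for *Lpin1* *Tmtc1* (0.93) and for *Dgat1* *Mfng* (0.93).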

How the data were processed

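Per the labels, RNA of eWAT from 12 mice was made into libraries with the Illumina TruSeq RNA kit, and the submitters' processing notes name CASAVA 1.8.2, Bowtie2 2.2.3, TopHat2 2.0.12 and Cufflinks 2.2.1. The genome build is not given in the sources used here. The authors deposited FPKM per transcript, for 152210 annotated and assembled transcripts in 15 columns, of which 3 matched no sample and were not used. The column headed MD4 was taken as ND mouse 4 by inference from its number and place. Columns of the authors' own comparisons, which mark called transcripts, were not used. The study's count test could not be repeated on FPKM.

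Annotated transcripts, and assembled ones that match or share a junction with an annotated transcript, were matched to GENCODE M21 (GRCm38) and summed to 22947 genes. All 10 members had the same rows by symbol and by GENCODE gene. Transcripts left out of these sums held 65.8% to 92.9% of the FPKM of a column. The gene totals that were kept came to 435095 to 455040 FPKM. FPKM carry no read depth, so no floor is given.

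limma 3.58.1 in R 4.3.3 was fitted to log2(FPKM + 1) of the 12775 genes with at least 1 FPKM in at least 3 libraries, with 1 coefficient per group, no covariate and no trend. Tables and plots were made with Python 3.11.15, pandas 2.3.3, numpy 2.4.6 and matplotlib 3.10.9. The method was tested on simulated data. The members, the other pathway genes, the marker lists and the rule for named genes (all 10 members, other pathway genes called in a diet comparison, and the most alike gene of each member) were chosen with earlier results of these data known. Alternatives changed the pseudocount, the filter, the scaling, the libraries fitted, the letter R, the variance trend, the transcripts summed, the threshold and the reference level. The reference of 5 adipocyte genes was added after the data were seen. Promoter windows are from RefSeq (GRCm38.p6), 250 bases before to 50 after a start, with an entry for 7 of the 10 genes.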

Additional observations from a re-analysis of the deposited data

How the results depend on the processing

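Over the 10 genes, 6 comparisons and 25 alternatives, 1460 values were computed, and 68 values that were uncalled in both settings changed sign. The calls of *Pck1* and *Mogat1* with HFD and CLE held in all 24 alternatives. The count of 7 genes called with HFD became 4 with the letter R as a covariate, where *Gpd1*, *Gpam* and *Dgat2* were lost at 0.71, -0.52 and 0.77, and ranged from 5 to 7 over fits without 1 library. The count of 5 with CLE became 3 without the libraries with the letter R, and ranged from 3 (without CLE mouse 4) to 7 (without CLE mouse 11). The count of 4 with LU was 3 after median ratio scaling, for the most abundant transcript alone and without the libraries with the letter R, and ranged from 2 (without LU mouse 3) to 5 (without LU mouse 8). Between CLE and ND, 1 gene, *Lpin1*, in place of 0 was called relative to the 8 adipocyte genes. Between LU and ND, the count of 2 became 0 without the libraries with the letter R and 1 relative to the 5 adipocyte genes, and ranged from 0 (without LU mouse 8) to 2, with 1 without ND mouse 2. Between CLE and LU it stayed at 0 in all alternatives. With an adjusted p under 0.05 alone as the threshold, the counts were 9 with HFD, 7 with CLE, 4 with LU, 0 between CLE and LU, 0 between CLE and ND and 3 between LU and ND. The share of all genes under this threshold alone was not computed, so these counts are not read as a result about the 10 genes.

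Signs turned for *Gpam* with HFD (0.33) without the assembled transcripts that share a junction, which are 10 of its 12 transcripts. Relative to the 8 adipocyte genes, the changes were 0.32 for *Gpam*, 0.77 for *Lpin1* and 0.26 for *Dgat1* with HFD, -0.061 for *Lpin1* and -0.13 for *Aqp7* with CLE, and -0.023 for *Aqp7* with LU. Relative to the 5 adipocyte genes, they were 0.16 for *Gpam*, 0.62 for *Lpin1* and 0.11 for *Dgat1* with HFD and -0.023 for *Aqp7* with CLE. Changes that were uncalled in both settings also turned, relative to the 5 genes to 0.29 for *Aqp7* with HFD, -0.11 and -0.15 for *Gpam* with CLE and LU, -0.42 for *Dgat1* with each and -0.24 for *Lpin1* with LU. These references fell with HFD and rose with both supplements, which moves every gene the other way.

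The mouse numbers were read as identities within a group, so the samples were not paired. Libraries with the same number in ND, CLE and LU had correlations of -0.10 to 0.19 in their deviations from the group means. Those with different numbers had -0.26 to 0.33. Deviations from means of 3 libraries depend on each other, so these values cannot exclude a pairing. With the number as a replicate block, 0 genes were called between CLE and ND and 2 between LU and ND, as without it, and HFD shares no number. The cause of the other changes was not tested. With 3 mice per group, an exact permutation test of 1 gene cannot go below 0.1, so calls rest on the spread shared over groups in limma. The single ND library left without the letter R is assumed to vary like the others.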
